A study of Mus musculus with 4 samples.

Results

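The 10 genes described here are enterocyte and gut identity genes, and they were followed in medullary thymic epithelial cells of the mouse. They are the homeobox genes Cdx1 and Cdx2, the lipid-binding protein genes Fabp1, Fabp2 and Fabp6, the brush border enzyme genes Lct, Sis and Alpi, the microvillus gene Vil1 and the hormone gene Guca2a. The members were chosen by name, as a list of gut identity genes. Each of the 10 had 1 RefSeq ID in the count table, out of 30794 IDs that matched 23003 gene symbols, and all 10 passed the filter on low counts, as did 26790 IDs in all.

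Enterocytes are the columnar cells that line the villi and take up nutrients. Their apical membrane is folded into microvilli, the brush border, which carries enzymes that split sugars and phosphate esters, and their cytoplasm holds binding proteins that move fatty acids and bile acids. Gut identity is set by the caudal-type homeobox factors CDX1 and CDX2. Medullary thymic epithelial cells make many proteins that otherwise belong to peripheral tissues and show them to developing thymocytes, and Aire is the nuclear factor best known for driving this expression.

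The RNA-seq covered mTEChi, the fraction of these cells with most MHC class II on the surface, in 4 libraries, 1 labelled WT and 1 labelled Aire-KO (Aire-/-) in each of 2 experiments, a first and a replicate experiment. Cells with high I-A/E and neither CD45 nor Ly51 were sorted from thymi of 4 mice per pool at 4 weeks of age. The mice were on the B6 background in both genotypes, and a library averages 4 animals and whole populations of cells. The study describes wild-type mice as purchased and Aire-deficient mice as provided by another laboratory, and it names no littermates. Source of the mice and genotype thus cannot be told apart. The Aire deletion is carried by whole animals rather than by these cells alone, and the labels name no treatment for either group. Because RNA was measured in bulk, fewer cells with a transcript and less of it per cell cannot be told apart.

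Counts summed over all RefSeq IDs were between 111077552 and 242862323 per library, so that 3 counts correspond to 0.0130 to 0.0252 CPM (counts per 1000000, here scaled by TMM, the normalization of edgeR). Aire itself had 87229 counts under the WT label against 200697 under the Aire-KO label in the first experiment, and 36597 against 175884 in the replicate one. Its counts therefore ran against the labels (log2 fold change of WT over Aire-KO -1.61 ± 0.44 SE, adjusted p = 0.0885 by edgeR, and 0.000448 with the experiment as a block), and they do not separate the disrupted exons from the rest of the gene. Over all RefSeq IDs, 1495 were called higher and 69 lower under the WT label. All directions below are those of the labels. The defining markers of mTEC were abundant in every library, and none of 15 was called in either direction by edgeR or by DESeq2, or had an unadjusted p under 0.05, while with the experiment as a block 5 were called lower under the WT label. The summed CPM of these markers ranged from 16320 to 26820 in the libraries labelled WT and from 27360 to 33460 in those labelled Aire-KO. Most of this sum came from the MHC class II genes H2-Aa and H2-Ab1 and from Cd74. MHC class II was also used to sort the cells, so the sum mostly follows these genes. Among the 15 markers, 5 had a positive log2 fold change of WT over Aire-KO.

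The members were first compared as a group. In a fit with genotype only, 4 of 10 were called higher under the WT label (adjusted p under 0.05), namely Alpi, Cdx2, Fabp2 and Fabp6, where 5.58% of all RefSeq IDs tested were called higher. None of the 10 was lower by edgeR, at an adjusted or at an unadjusted p under 0.05, nor by DESeq2, where edgeR called 0.258% of all IDs lower. Their median log2 fold change was 2.39, against -0.03 over all IDs tested. In 9 members both libraries labelled WT lay above both labelled Aire-KO, and in Cdx1 both lay below, whereas 28.4% and 20.9% of all IDs were separated in these ways. The experiments pair the libraries, and with the experiment as a block 9 members were called higher and Cdx1 was called lower. That fit called 16.5% of all IDs higher and 10.4% lower. Its p-values rest largely on a spread shared over genes, since 4 libraries leave little information on a single gene.

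**Figure D1:**
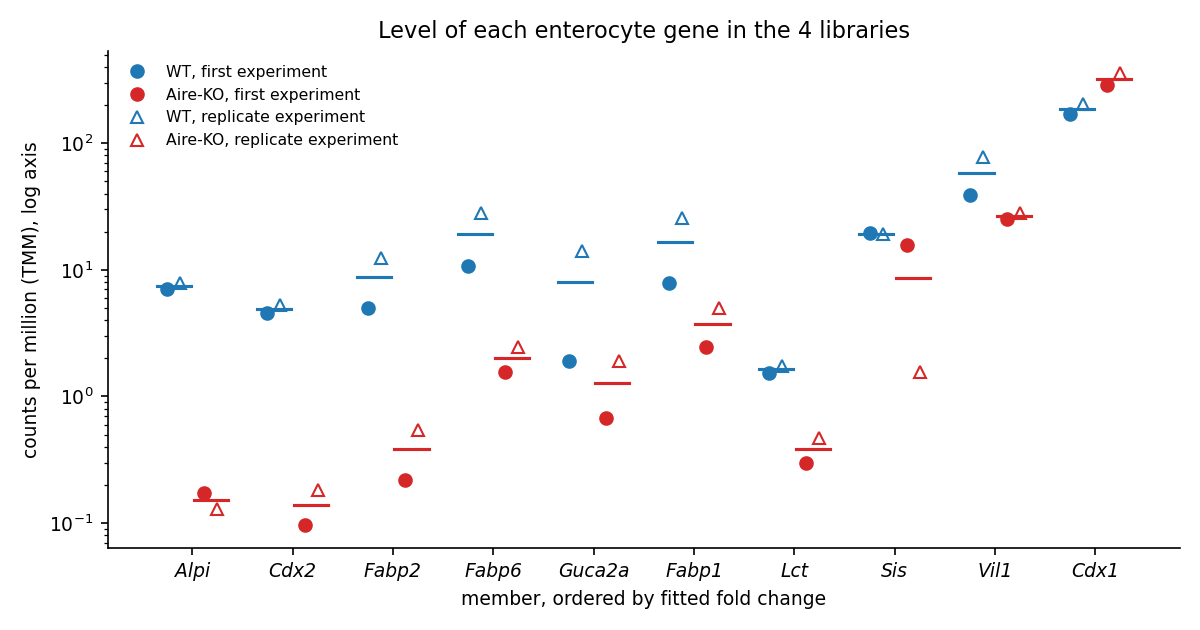
CPM (TMM) of each member on a log axis, with 1 point per library (circles for the first and triangles for the replicate experiment, blue for libraries labelled WT and red for Aire-KO) and the mean of each genotype as a bar. Red points lie below blue ones in 9 members and above them in Cdx1, and the red points of Sis are 10.03-fold apart.

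**Figure D2:**
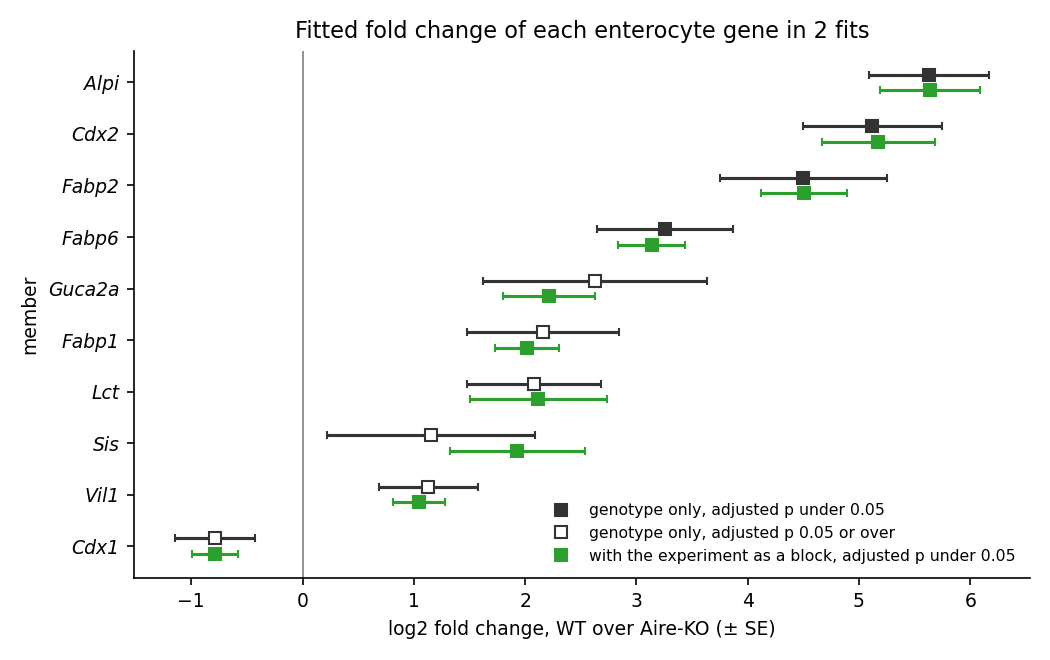
Log2 fold change of WT over Aire-KO with its SE for each member, from the fit with genotype only (black, filled where the adjusted p is under 0.05) and from the fit with the experiment as a block (green). The estimates of both fits lie close together except for Sis, at 1.15 and 1.93, and 4 black and all 10 green squares are filled.

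The upstream sequences of members that moved, or that carried more than 1 copy of the motif searched, are shown to compare their CDX letters. CDX proteins bind AT-rich elements with the core TTTAT, which reads ATAAA on the other strand. The 100 bases before the RefSeq start were read from RefSeq on GRCm38.p6, where 9 of the 10 members had a promoter entry, and are printed 5′ to 3′ on the strand of the gene with TTTAT and ATAAA in capitals.
Alpi (chr1:87101607-87101706, minus strand): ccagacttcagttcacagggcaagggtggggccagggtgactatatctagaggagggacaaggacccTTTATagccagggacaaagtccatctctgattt
Cdx2 (chr5:147307250-147307349, minus strand): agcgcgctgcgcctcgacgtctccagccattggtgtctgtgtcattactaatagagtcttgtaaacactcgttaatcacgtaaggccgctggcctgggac
Fabp2 (chr3:122894972-122895071, plus strand): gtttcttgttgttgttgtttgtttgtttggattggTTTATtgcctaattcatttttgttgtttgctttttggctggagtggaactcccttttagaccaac
Fabp6 (chr11:43601563-43601662, minus strand): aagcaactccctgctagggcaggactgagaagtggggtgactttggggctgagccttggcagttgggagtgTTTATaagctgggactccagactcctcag
Fabp1 (chr6:71199779-71199878, plus strand): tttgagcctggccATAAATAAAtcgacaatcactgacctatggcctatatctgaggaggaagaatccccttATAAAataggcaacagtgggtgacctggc
Sis (chr3:72967864-72967963, minus strand): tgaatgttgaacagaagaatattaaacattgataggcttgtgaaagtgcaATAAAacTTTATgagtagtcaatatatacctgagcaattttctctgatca

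The 5 letters stood in the window of 6 of 9 members, namely Alpi, Fabp1, Fabp2, Fabp6, Lct and Sis, and in 17.5% of 32851 RefSeq promoters. Fabp1 held 3 matches and Sis 2, and 3.47% of all promoters held 2 or more. The matches of Sis began 50 and 43 bases before the start, on opposite strands. In Alpi, Fabp1 and Fabp6 a match 29 to 33 bases before the start lay inside TATAAA or its reverse complement TTTATA, the letters of a TATA box, which stood in 5.56% of all promoters, so the letters cannot be assigned to one element. The only match of Lct began 30 bases before the start, within the same range, but without the full TATAAA. No match was found in the windows of Cdx2, Guca2a and Vil1. Of the other motifs searched on both strands, the HNF1 half-site GTTAAT stood in the window of Cdx2 (2.51% of all promoters), the HNF4 half-site CAAAGT in those of Alpi and Fabp6 (4.46%) and the GATA motif AGATAA in that of Lct (3.59%). A match of these letters is a description and not a binding site.

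Among the transcription factors, Cdx2 and Cdx1 went opposite ways. Cdx2, which directs intestinal identity and binds the control regions of many brush border genes, lies on chromosome 5 of mm9 (148112381 to 148118846, minus strand). Its counts were 999 (labelled WT) against 14 (labelled Aire-KO) in the first experiment, and 633 against 42 in the replicate one. The libraries labelled WT were close to each other, at 4.94 ± 0.529 CPM (SD, n = 2), and those labelled Aire-KO were at 0.140 ± 0.0611 CPM. The fold within the experiments was 47.4 and 29.1, and the log2 fold change was 5.12 ± 0.62 SE (adjusted p = 0.0180 by edgeR).

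Cdx1, the paralogue that in the gut is strongest in the crypts, lies on chromosome 18 (61178516 to 61195853, minus strand). It had 37200 counts (labelled WT) against 41924 (labelled Aire-KO) in the first experiment, and 24248 against 81700 in the replicate one. On the CPM scale it stood at 187 ± 23.7 in the libraries labelled WT and at 322 ± 47.3 in those labelled Aire-KO, so that the groups did not overlap and WT was the lower one. The ratio of WT over Aire-KO was 0.589 in the first and 0.572 in the replicate experiment. The log2 fold change of -0.79 ± 0.36 SE did not pass the test with genotype only (adjusted p = 0.291), and it passed with the experiment as a block (-0.78 ± 0.21 SE, adjusted p = 0.0141). Relative to the median of all IDs the value was -0.75 with TMM and -0.77 with library sizes alone, a scaling that moved that median by 0.29.

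Levels per length (RPKM, counts per kilobase of the summed features, per 1000000 counts of 1 RefSeq ID per gene) set the 2 factors far apart. In the libraries labelled WT the RPKM of Cdx1 was 45.6 and 47.0 times that of Cdx2, and in the libraries labelled Aire-KO it was 3670 and 2384 times as high. Cdx1 lay at the 97.7th percentile of all genes or above in every library, whereas Cdx2 lay at percentiles of 45.6 and 49.2 in WT and of 20.01 and 25.3 in Aire-KO.

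Of the 3 lipid-binding genes, Fabp6 and Fabp2 were called higher under the WT label, and Fabp1 did not pass the test with genotype only. Fabp6 encodes the ileal bile acid-binding protein and lies on chromosome 11 (43409551 to 43415042, minus strand). It had 2333 counts (labelled WT) against 228 (labelled Aire-KO) in the first experiment and 3327 against 566 in the replicate one, or 19.3 ± 12.2 CPM against 2.02 ± 0.631 CPM. The fold was 6.79 and 11.3, and the log2 fold change of 3.26 ± 0.61 SE passed the test (adjusted p = 0.0375 by edgeR). It was 2.39 (adjusted p = 0.0164) without the WT library of the replicate experiment, and that library stood 2.62 times above the other one of its genotype in CPM.

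Fabp2, the intestinal fatty acid-binding protein, lies on chromosome 3 (122597990 to 122602424, plus strand), inside the long noncoding gene 4933405D12Rik of the opposite strand, and the library kit did not mark strand. Its counts were 1089 against 32 in the first experiment, and 1486 against 125 in the replicate one. The replicate experiment had higher CPM under both labels, 2.51-fold in WT and 2.47-fold in Aire-KO, so that the fold between genotypes was nearly the same, 22.6 and 22.9. Its log2 fold change was 4.50 ± 0.75 SE (adjusted p = 0.0304 by edgeR) and it was 3.67 (adjusted p = 0.00109) without the WT library and 5.30 (adjusted p = 1.5e-07) without the Aire-KO library of the replicate experiment.

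Fabp1, the liver-type fatty acid-binding protein that enterocytes share with hepatocytes, lies on chromosome 6 (71149821 to 71155017, plus strand). It had 1722 against 359 counts in the first experiment, and 3032 against 1143 in the replicate one. The libraries labelled WT differed 3.23-fold from each other in CPM, about as large as the 3.18-fold difference between genotypes in the first experiment. On the log2 scale the fitted change was 2.16 ± 0.68 SE, with an adjusted p of 0.124 by edgeR that turned to 0.000345 with the experiment as a block. It was 1.06 (adjusted p = 0.605) without the WT library of the replicate experiment, and it passed the test without that of the first experiment (2.66, adjusted p = 0.00128) and without the Aire-KO library of the replicate experiment (2.75, adjusted p = 0.00356).

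The brush border enzymes ranged from the widest difference of all members to one that rested on a single library. Alpi encodes intestinal alkaline phosphatase and lies on chromosome 1 (88994579 to 88998181, minus strand). It had 1538 counts against 25 in the first experiment and 945 against 30 in the replicate experiment. Both genotypes were tight, at 7.48 ± 0.639 CPM and 0.151 ± 0.0294 CPM, and the fold was 40.8 and 60.8. The log2 fold change of 5.63 ± 0.54 SE passed the test (adjusted p = 0.0176 by edgeR) and ranged from 5.43 to 5.83 when 1 library was left out. Alpi shares long stretches of sequence with Akp3 and Alppl2, and how reads that match several of them were placed is not given in the sources used here, so the split of counts among these genes is uncertain.

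Lct encodes lactase, the enzyme of milk sugar digestion, and lies on chromosome 1 (130181333 to 130224895, minus strand). It had few counts for a transcript of 6166 bases, 336 against 43 in the first experiment, and 207 against 109 in the replicate one. Libraries labelled WT were at 1.64 ± 0.143 CPM and those labelled Aire-KO at 0.385 ± 0.126 CPM, and the groups did not overlap. The fold was 5.19 and 3.66, and the log2 fold change of 2.08 ± 0.60 SE had an adjusted p of 0.102 by edgeR with genotype only and of 0.0234 with the block. Without the Aire-KO library of the replicate experiment it was 2.46, with an adjusted p of 0.0341.

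Sis encodes sucrase-isomaltase, which splits sucrose and starch fragments, and lies on chromosome 3 (72692479 to 72771785, minus strand). Under the WT label it had 4249 counts in the first and 2278 in the replicate experiment, which gave the same level, 19.4 and 19.1 CPM. Under the Aire-KO label it had 2289 and 361 counts, or 15.8 and 1.57 CPM, a 10.03-fold difference within the genotype. The fold of WT over Aire-KO was accordingly 1.23 in the first and 12.2 in the replicate experiment. The log2 fold change was 1.15 ± 0.93 SE (adjusted p = 0.596 by edgeR) and 1.93 ± 0.61 SE with the block (adjusted p = 0.0336). It was 3.61 (adjusted p = 0.000103) without the Aire-KO library of the first experiment and 0.28 (adjusted p = 0.881) without that of the replicate experiment.

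Vil1 encodes villin, the actin-bundling protein in the core of the microvillus, and lies on chromosome 1 (74455950 to 74482133, plus strand), with its 3′ end over Usp37 of the opposite strand. It had 8547 against 3676 counts in the first experiment, and 9284 against 6473 in the replicate one. The libraries labelled Aire-KO were alike, at 25.3 and 28.2 CPM, whereas those labelled WT were at 39.0 and 77.9 CPM. The fold was 1.54 and 2.77, the smallest upward difference among the members in the replicate experiment. Its fitted log2 value was 1.13 ± 0.44 SE, with an adjusted p of 0.213 by edgeR and of 0.00635 with the block, and it was 0.55 without the WT library of the replicate experiment.

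Guca2a encodes guanylin, the peptide ligand of the guanylate cyclase C receptor on the enterocyte surface, and lies on chromosome 4 (119310309 to 119312076, plus strand). It had 417 against 98 counts in the first experiment, and 1676 against 437 in the replicate one. No other member varied as much between the libraries labelled WT, which stood at 1.90 and 14.1 CPM, and the Aire-KO library of the replicate experiment (1.90 CPM) reached the level of WT in the first, although the groups still did not overlap (1.9045 against 1.9008 CPM). The fold was 2.82 and 7.40. The fitted log2 value was 2.63 ± 1.01 SE (adjusted p = 0.200 by edgeR) and 2.21 ± 0.41 SE with the block (adjusted p = 0.00197). Without the WT library of the replicate experiment it was 0.53 (adjusted p = 0.947), and without that of the first experiment it was 3.32 (adjusted p = 0.0000983). It also passed the test without the Aire-KO library of the first experiment (2.07, adjusted p = 0.0361) and without that of the replicate experiment (3.56, adjusted p = 0.000180).

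The variation between experiments thus differed among the members. In the libraries labelled WT, Alpi, Cdx1, Cdx2, Lct and Sis changed by less than 1.2-fold in CPM between experiments, whereas Vil1, Fabp2, Fabp6, Fabp1 and Guca2a were 2.00, 2.51, 2.62, 3.23 and 7.38 times higher in the replicate experiment. In the libraries labelled Aire-KO, Alpi and Sis were lower and the other 8 were higher in the replicate experiment.

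Levels per length ordered the members similarly in both experiments. Cdx1 came first in the libraries labelled WT at 161 ± 11.5 RPKM, followed by Fabp6 (74.2 ± 43.6 RPKM), Fabp1 (50.3 ± 35.4 RPKM), Vil1 (28.1 ± 11.8 RPKM), Guca2a (21.0 ± 22.1 RPKM) and Fabp2 (20.2 ± 11.3 RPKM). Neighbours among the 5 that followed Cdx1 overlapped in their ranges over libraries, a spread that includes the shift between experiments. Within each library labelled WT, Fabp6 stood above Fabp1, Fabp1 above Vil1 and Vil1 above Fabp2, while the place of Guca2a varied. This order was not tested. Fabp6 lay wholly above Vil1, Guca2a and Fabp2 in range. Below them came Sis (4.96 ± 0.331 RPKM), Alpi (4.84 ± 0.144 RPKM), Cdx2 (3.48 ± 0.179 RPKM) and Lct (0.401 ± 0.0127 RPKM), where only Sis and Alpi overlapped. The levels spanned 402-fold between Cdx1 and Lct.

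In the libraries labelled Aire-KO, Cdx1 again came first at 232 ± 47.8 RPKM, and Vil1 came next at 10.8 ± 1.46 RPKM and Fabp1 at 9.64 ± 5.09 RPKM. Alpi, Cdx2 and Lct formed the lower end at 0.0809 ± 0.0110, 0.0828 ± 0.0407 and 0.0793 ± 0.0304 RPKM, with overlapping ranges. The share of Cdx1 in the summed RPKM of the 10 members was 56.1% and 36.5% in the libraries labelled WT and 88.4% and 87.0% in those labelled Aire-KO. Without Cdx1, the other 9 summed to 120 and 295 RPKM under the WT label and to 26.0 and 39.6 RPKM under the Aire-KO label.

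**Figure D3:**
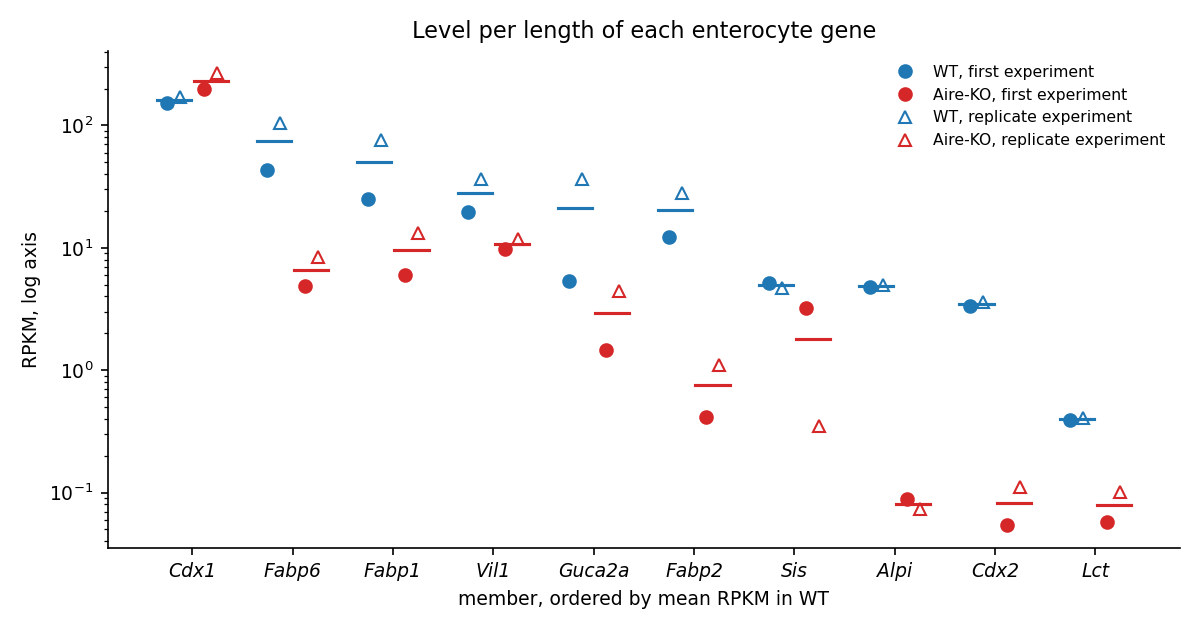
RPKM of each member on a log axis, ordered by the mean of the libraries labelled WT, with 1 point per library (circles for the first and triangles for the replicate experiment) and the mean of each genotype as a bar. Cdx1 is above all other members in every library, and Alpi, Cdx2 and Lct fall to about 0.08 RPKM in the libraries labelled Aire-KO.

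The genes whose pattern over the 4 libraries was most like that of Cdx1, the member with most RPKM in WT, were sought by the Euclidean distance of log2(CPM + 1) minus its mean over the 4 libraries. Among 22046 genes with a count outside the members, Il1r2, a decoy receptor of interleukin 1, was nearest (distance 0.0196), then the transcription factor Klf2 (0.0426) and Rab11fip4 (0.0434). A distance of at most 0.25 was shared by 177 of these 22046 genes. No such number was formed for another gene, so whether the pattern of Cdx1 is common was not tested.

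The reads of each member were then followed over the parts of its transcript, since the deposited feature counts separate the 5′UTR, the coding exons before the last one (coding exons here) and the last exon with the 3′UTR. For Cdx1, the last exon of 1080 bp held 33943, 35490, 21441 and 70049 reads (WT and Aire-KO of the first, then of the replicate experiment), and the coding part of 591 bp held 3099, 5726, 2645 and 10803. Per base the last exon had 5.99, 3.39, 4.44 and 3.55 times the reads of the coding exons, at or above the 95.9th percentile of all genes in every library, while the median over genes was between 1.34 and 1.61. The ratio of Cdx1 was higher in both libraries labelled WT than in both labelled Aire-KO. So was the median over genes, at 1.61 and 1.37 against 1.34 and 1.35. The share of genes separated in this way was not formed, so nothing particular to Cdx1 is read from it. Counting coding exons only, the log2 fold change of Cdx1 was -1.16 (adjusted p = 0.122 by edgeR), and over the last exon only it was -0.74 (adjusted p = 0.389).

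Cdx2 also had more reads per base in the last exon, 2.94 and 3.46 times those of the coding exons in the libraries labelled WT. Its coding part held 155 and 81 reads there and 5 in each library labelled Aire-KO, and the fold change held over the coding exons alone (log2 4.73, adjusted p = 0.0203 by edgeR) and the last exon alone (5.29, adjusted p = 0.0308). Fabp1 had the opposite profile, with ratios between 0.381 and 0.660 over its last exon of 120 bp, and a part this short holds few positions for a whole read of 50 bp. The last exon ratios of Lct ranged from 0.475 to 3.30, with 2 reads in the last exon of the Aire-KO library of the first experiment. For Fabp6 the table lists 1 part of 387 bp only, so no ratio could be formed.

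**Figure D4:**
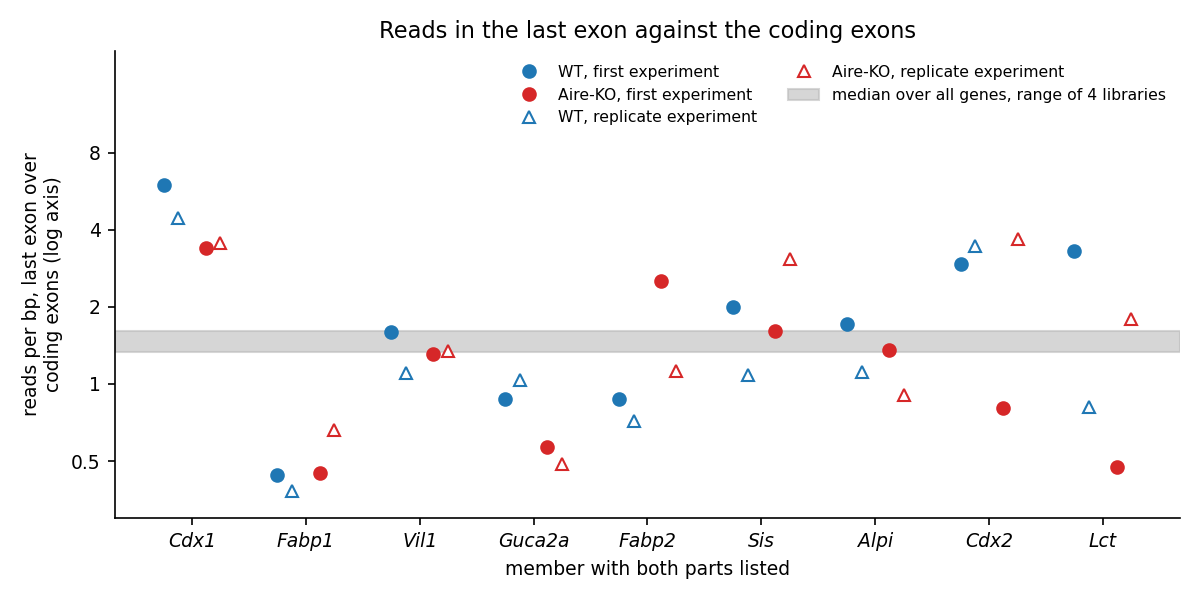
Reads per bp in the last exon over reads per bp in the coding exons (log axis) for the 9 members with both parts listed, with 1 point per library; the grey band is the range, over the 4 libraries, of the median of all genes with at least 100 reads in both parts together. Cdx1 lies above the band in all 4 libraries and Fabp1 below it.

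A distal 3′UTR (d3′UTR), the stretch beyond a proximal polyadenylation site, was listed for Vil1 alone among the members. It is 42 bp long after an upstream part of 641 bp and held 41, 30, 12 and 17 reads, against 2551, 946, 2120 and 1707 upstream. The ratio per base was 0.245 (95% exact binomial interval 0.176 to 0.334) and 0.484 (0.325 to 0.696) for WT and Aire-KO of the first experiment, and 0.0864 (0.0446 to 0.151) and 0.152 (0.0883 to 0.244) in the replicate experiment. Both experiments gave the lower ratio under the WT label, with intervals that overlapped within each experiment, and the replicate experiment was lower under both labels. These intervals cover counting error only. A region of 42 bp cannot hold a whole read of 50 bp, yet reads were counted there, and in 35 of 409 d3′UTRs under 50 bp. How such reads were counted is not given in the sources used here, so the ratios of Vil1 are uncertain.

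Other intestinal genes, and paralogues of the members, were taken from lists, with 1 RefSeq ID per gene. The genes called in each list are read beside the shares over all RefSeq IDs tested. With genotype only, 5.58% of those IDs were called higher and 0.258% lower, and with the block 16.5% and 10.4%. Of 32 enterocyte transporter and lipoprotein genes, 6 were called higher under the WT label and 0 were called lower by edgeR (0 at an unadjusted p under 0.05 and 0 by DESeq2), with a median log2 fold change of 1.98. The sodium-glucose transporter Slc5a1 (log2 2.99 ± 0.48 SE, adjusted p = 0.0279), the sodium-proton exchanger Slc9a3 (5.06 ± 0.94 SE, adjusted p = 0.0371), the bile acid exporter subunit Slc51a (2.18 ± 0.44 SE, adjusted p = 0.0437) and the carbonic anhydrase Car1 (8.68 ± 1.18 SE, adjusted p = 0.0204) had the smallest p of the list. The most abundant per length were the apolipoprotein genes Apoa4 (385 RPKM in WT) and Apoa1 (162 RPKM in WT), with log2 values of 2.45 and 3.42 and adjusted p of 0.0940 and 0.0828. For Car1 the counts were 923 and 698 under the WT label, 4 in Aire-KO of the first experiment and 0 in that of the replicate experiment. With the block, 19 of the list were called higher, Apoa4 and Apoa1 among them, and 0 lower. Without the Aire-KO library of the first experiment 17 were called higher, without that of the replicate experiment 13, and without the WT library of the first experiment 12.

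Among all IDs tested, 5.58% were called higher with genotype only and 16.5% with the block. The 16 brush border enzyme genes in the table had a median of 1.37, and 0 were lower (0 also at an unadjusted p under 0.05 and by DESeq2). In this list 2 genes (12.5%) were higher. They were Enpep, an aminopeptidase (2.69 ± 0.42 SE, adjusted p = 0.0268 by edgeR), and Ace, the angiotensin-converting enzyme (2.16 ± 0.41 SE, adjusted p = 0.0384). Enpep encodes Ly51, which the sort selected against, and it is also among the cortical epithelial markers followed below. How the sort bears on its value was not tested. Ggt1 stood at 2.42 with an adjusted p of 0.0577, and the meprin subunits Mep1a and Mep1b, the most abundant of the list, at 0.89 and 0.39 with adjusted p of 0.361 and 0.693. With the block, 9 were called higher, including Ggt1 and Mep1a, and 0 lower. Library sizes alone, or no filter on low counts, gave 6, and the count was 9 without the Aire-KO library of the first experiment, 6 without that of the replicate experiment and 5 without the WT library of the first experiment. Of 14 brush border structure genes, 4 were higher and 0 lower (likewise 0 at an unadjusted p under 0.05 and by DESeq2), with a median of 0.68. They were the microvillar link genes Cdhr2 (2.80 ± 0.58 SE, adjusted p = 0.0462) and Ush1c (3.43 ± 0.56 SE, adjusted p = 0.0285), Mall (2.37 ± 0.48 SE, adjusted p = 0.0441) and Prom1 (2.25 ± 0.39 SE, adjusted p = 0.0336). Ezr, which links actin to the membrane, and the keratin gene Krt20 were the most abundant, at -0.41 and 0.70 with adjusted p of 0.624 and 0.389. With the block, 7 were called higher, Krt20 among them, and 0 lower, and without the WT library of the replicate experiment the count dropped to 2.

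Of 18 intestinal transcription factor genes, 2 (11.1%) were higher, beside 5.58% of all IDs tested (16.5% higher and 10.4% lower with the block). They were Hnf4a (2.61 ± 0.48 SE, adjusted p = 0.0366 by edgeR) and Gata5 (5.17 ± 0.69 SE, adjusted p = 0.0199). In the same list 0 were lower (1 at an unadjusted p under 0.05, 0 by DESeq2), and the median was 1.17. Nr1h4, the bile acid receptor that acts on Fabp6 in the ileum, had 215 against 21 counts in the first and 224 against 43 in the replicate experiment (3.10 ± 0.70 SE, adjusted p = 0.0562), and Creb3l3 stood at 2.18 (adjusted p = 0.0690). Elf3 and Klf4, the most abundant of the list at 209 and 137 RPKM in WT, stood at 0.81 and 0.46 with adjusted p of 0.297 and 0.708. With the block, 9 were called higher, including Nr1h4, Creb3l3 and Elf3, and 2 lower. Library sizes alone, or no filter, gave 4. Without the Aire-KO library of the first experiment 5 were called higher, without that of the replicate experiment or the WT library of the first 4, and without the WT library of the replicate experiment 1.

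The paralogues of the members varied more widely. Of 27, 6 (22.2%) were higher and 0 lower (0 at an unadjusted p under 0.05 and by DESeq2), with a median of 1.23. Among all IDs tested 5.58% were called higher, and with the block 16.5% higher and 10.4% lower. Alppl2, a close relative of Alpi, was counted 1715 and 1304 times under the WT label and 4 and 0 times under the Aire-KO label (9.59 ± 1.13 SE, adjusted p = 0.0176 by edgeR), and Alpl, the tissue-nonspecific phosphatase, stood at 3.01 ± 0.40 SE (adjusted p = 0.0197). Among relatives of the Fabp genes, the retinoid-binding genes Rbp7 and Crabp1 stood at 8.33 ± 0.80 SE and 8.89 ± 0.95 SE (both adjusted p = 0.0176). Fabp4 and Fabp5, the most abundant at 1119 and 1476 RPKM in WT, were at -0.09 and 0.00 with adjusted p of 0.957 and 0.999. With the block, 13 were called higher and 2 lower, and without the WT library of the first experiment 10 were called higher.

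**Figure D5:**
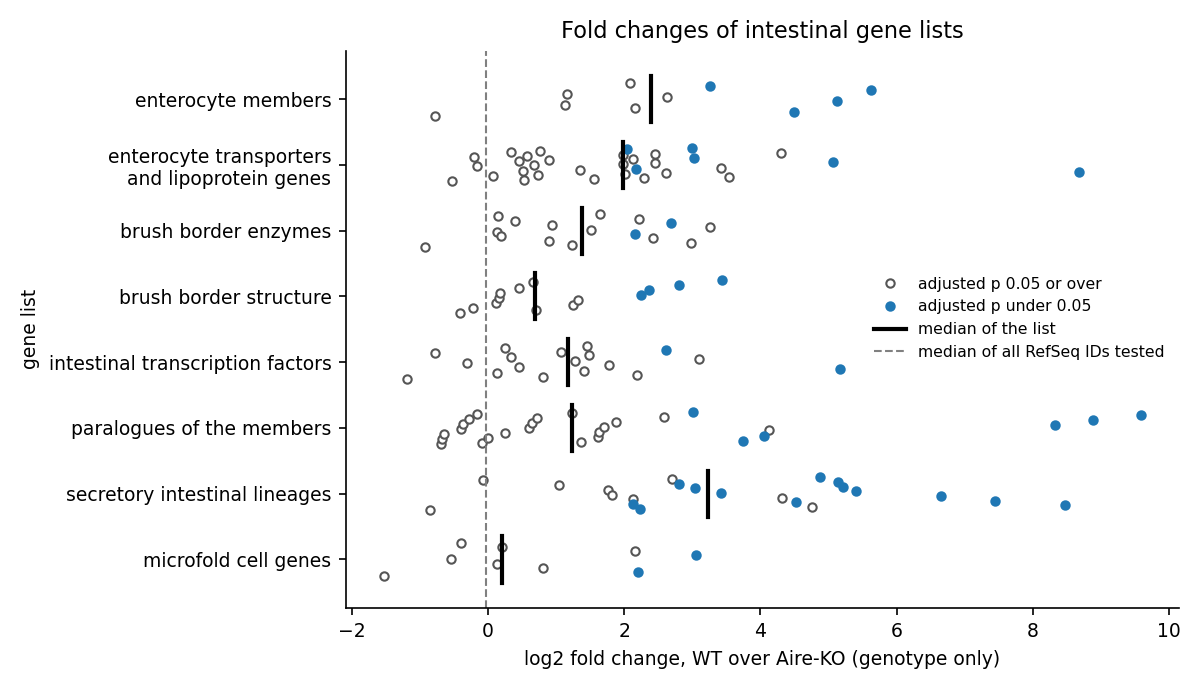
Log2 fold change of WT over Aire-KO for each gene of 8 lists in the fit with genotype only, with filled points where the adjusted p is under 0.05, the median of each list as a black bar and the median of all RefSeq IDs tested as a dashed line. Every list has its median to the right of the dashed line, from 0.20 for microfold cell genes to 3.23 for secretory lineages, and the members stand at 2.39.

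Markers of other cells that a sort could carry were followed beside the members, and their part in the differences was not tested. For each list the genes with most counts in the libraries labelled WT are named as leading it. The summed CPM of 14 thymocyte markers was 50.8 and 71.3 under the WT label and 40.9 and 45.3 under the Aire-KO label, led by Cd4 and Lck. For 13 dendritic cell and macrophage markers, led by Lyz2 and Mrc1, it was 362 and 598 against 423 and 402, and 2 were called higher (Itgam and Adgre1, named after their values were seen). For 6 B cell markers, led by Blnk and Cd79b, it was 98.8 and 119 against 148 and 184, and for 6 endothelial markers, led by Plvap and Tek, 32.3 and 60.6 against 30.7 and 72.0. The 9 fibroblast markers, led by Dcn and Pdgfrb, summed to 162 and 132 against 350 and 314, and 3 were called lower, Col1a2, Col3a1 and Dpt (named after their values were seen). The 6 cortical epithelial markers, led by Ccl25 and Prss16, summed to 279 and 328 against 619 and 407. Of these, 1 was called higher, namely Enpep, the gene of the Ly51 that the sort selected against. The 5 red cell markers, led by Hba-a1 and Hba-a2, summed to 39.2 (WT) against 17.5 (Aire-KO) in the first experiment and to 586 against 267 in the replicate one. Hba-a1 and Hba-a2 have the same count in each library, so that the same reads may enter this sum more than once. With the block, 6 thymocyte, 4 dendritic cell and macrophage, 3 red cell (Hba-a1 and Hba-a2 among them) and 1 each of the B cell, endothelial and cortical markers were called higher, and 6 fibroblast, 2 cortical and 1 each of the B cell and dendritic cell and macrophage markers were called lower. The fit with genotype only called 5.58% of all IDs higher and 0.258% lower, and the fit with the block 16.5% and 10.4%. No marker was at 0 in all libraries.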

How the data were processed

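The deposited values are raw read counts, without normalization, of RefSeq IDs and of their features. The authors joined and trimmed reads to 50 bp, filtered with CASAVA, mapped to mm9 with Bowtie 1.0.0 and counted reads lying wholly within RefSeq exons with bedtools, so reads across junctions are lost and short parts are undercounted. The kit (polyA selection) did not mark strand.

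WT was compared with Aire-KO by edgeR 4.0.16 (R 4.3.3; TMM, filterByExpr, quasi-likelihood test, genotype only, Benjamini-Hochberg over 26790 IDs, threshold 0.05). Fold changes, CPM and RPKM were computed from the deposited counts. Symbols came from RefSeq and positions from GENCODE M1 on mm9. Libraries of 1 experiment deviated together (correlation 0.725 over 20560 genes), and the study describes a replicate experiment, so the experiment served as a block in a second fit. Libraries of 1 genotype correlated at 0.955 (WT) and 0.962 (Aire-KO) and are not copies. With 2 pools per genotype, 1 from each experiment, pools and experiments vary together. The p-values of the fit with genotype only measure both spreads at once. With the block, they set the difference between genotypes against how far it varied between experiments. Both fits estimate the spread of a gene partly from that of other genes. With the block, 4 libraries leave little information on a single gene, so its p-values rest largely on the spread of other genes. Members and lists were chosen with earlier results of these data known. All 10 members are named, from each other list the 4 with the smallest p and the 2 with most RPKM in WT, and from marker lists the 2 with most counts in WT. One gene that this rule names is not reported here. Alternatives covered normalization, filter, DESeq2 1.42.0, features, RefSeq IDs, lengths and each library left out. Python 3.11.15, numpy 2.4.6, pandas 2.3.3, scipy 1.17.1 and matplotlib 3.10.9 were used.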

Additional observations from a re-analysis of the deposited data

How the results depend on the processing

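Of 129 alternative log2 fold changes of single members, 113 stayed on the same side of the threshold, 16 passed it where the main value had not, and none changed direction. Members called higher numbered 4 in the main fit, 7 by DESeq2 and 9 with the experiment as a block, and ranged from 4 to 7 when 1 library was left out; members called lower numbered 1 with the block. Fabp1, Guca2a and Lct were the 3 gained by DESeq2. Other intestinal genes called higher numbered 35, with 63 by DESeq2, 79 with the block and 30 to 61 with 1 library left out, and those called lower 0, with 1 by DESeq2, 6 with the block and 0 to 1 with 1 library left out. RefSeq IDs called higher numbered 1495, with 2470 by library sizes alone, 3438 by DESeq2, 4428 with the block and 1524 to 3664 with 1 library left out. RefSeq IDs called lower numbered 69, with 143 without the filter, 603 by DESeq2, 2777 with the block and 66 to 521 with 1 library left out. Leaving out the Aire-KO library of the replicate experiment gave 7 members, 54 other intestinal genes and 2754 RefSeq IDs higher and 521 lower. Without that of the first experiment, 61 other intestinal genes and 3664 RefSeq IDs were higher and 150 lower, and without the WT library of the first experiment 54 other intestinal genes were higher and 263 RefSeq IDs lower. A genotype left with 1 library was assumed to vary like the other. The cause of these shifts was not tested. The coding and last exon fits were chosen after seeing the data, and 3 members were called over the last exon, where Fabp6 has no value. Shortening each feature by the read length less 1 moved the mean WT RPKM of 3 members by more than 1 SD and exchanged Sis and Alpi in the order, and totals over all RefSeq IDs moved that of 5. The d3′UTR of Vil1 is shorter than the read, so its ratio could not be formed with shortened features.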

Other observations

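Other intestinal lineages were described from lists of secretory and of microfold cell genes. Beside them, 5.58% of all IDs tested were called higher and 0.258% lower with genotype only, and 16.5% and 10.4% with the block. Of 22 genes of secretory lineages, 13 were higher in the libraries labelled WT and 0 lower by edgeR (0 at an unadjusted p under 0.05 and by DESeq2), with a median log2 fold change of 3.23. The 4 with the smallest p were Nts, the neurotensin gene of enteroendocrine cells (11365 and 28 counts for WT and Aire-KO in the first, 7386 and 30 in the replicate experiment; log2 8.47 ± 0.51 SE), Gip, the gene of an incretin hormone (7.45 ± 0.72 SE), Tff3, a trefoil peptide of goblet cells (6.66 ± 0.68 SE), and Pyy, the peptide YY gene (5.21 ± 0.53 SE), each with an adjusted p of 0.0176. The most abundant of the list, the goblet cell gene Fcgbp (989 RPKM in WT) and the Paneth cell lysozyme gene Lyz1 (480 RPKM in WT), stood at -0.86 and 1.82 with adjusted p of 0.312 and 0.0936. With the experiment as a block, 19 were called higher, Lyz1 among them, and 1, Fcgbp, was called lower.

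Of 9 microfold cell genes, 2 were higher and 0 lower by edgeR (1 at an unadjusted p under 0.05, 1 by DESeq2), with a median of 0.20. They were Gp2, the bacterial uptake receptor (37112 and 5269 counts in the first, 58714 and 9929 in the replicate experiment; 3.06 ± 0.59 SE, adjusted p = 0.0396), and Ccl20 (2.21 ± 0.45 SE, adjusted p = 0.0450). Ccl9 and Icosl stood at 2.16 and -1.53 with adjusted p of 0.148 and 0.0874, and Marcksl1, the most abundant of the list at 706 RPKM in WT, at 0.13 with an adjusted p of 0.930. With the block, where 16.5% of all IDs were called higher and 10.4% lower, 4 were called higher, Ccl9 among them, and 1, Icosl, lower. Without the WT library of the replicate experiment 1 was called higher.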
